A study of Mus musculus with 8 samples.

Results

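The genes described here encode parts of the cilium and its motors: axonemal dyneins, tektins, radial spoke proteins and sperm-associated antigens, intraflagellar transport (IFT) proteins, Bardet-Biedl syndrome (BBS) proteins, tectonics, kinesin-2 and the roadblock dynein light chains. They were chosen by name, as array probes whose gene name starts with Dnah or Dnahc, Dnai or Dnaic, Dnali, Dynlrb, Tekt, Ift, Bbs, Rsph, Spag or Tctn and a number, or with Kif3 and its letter. A probe also had to be well above background, by the scanner's own flag, in the channel of 1 genotype on 3 or more of the 4 arrays of a stage. The names took in 122 probes for 61 genes. The detection limit kept 66 of these probes for 42 genes, out of 21907 kept probes and 15282 genes in all.

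The tissue was the rear of mouse embryos (strain C57Bl6J/CBA), taken behind the last somite as far as the base of the allantois. The groups were Cdx2 null mutants at 4/5 somites and at 7/8 somites, and wild type embryos at the same stages. The protein of Cdx2 is a caudal-type homeobox factor that acts in the tail end of the embryo. RNA of each group came from 20 embryos. The labels name 1 array pair of each stage a technical repeat and do not say whether it used separate RNA, so each group was taken here as 1 pool, 4 pools in all. Null and wild type RNA of a stage competed on the same 4 arrays, each in its own colour. On each such set, 2 arrays had the null pool in Cy3 and 2 in Cy5. The labels give neither the kind of null allele nor whether the node was part of the dissected tissue.

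A cilium is a microtubule shaft, the axoneme, that grows from a basal body. Nearly every cell type of the embryo can form an immotile primary cilium, which serves Hedgehog signalling and needs intraflagellar transport: kinesin-2 carries cargo trains towards the tip and cytoplasmic dynein-2 carries them back. Motile cilia also hold axonemal dynein arms, which slide the doublet microtubules past each other. In the early somite embryo, motile cilia are known from the node, a pit at the front end of the primitive streak, where their rotation drives the leftward flow that sets the left-right axis. There the transcription factors Noto and Foxj1 act upstream of the axonemal genes. Members were therefore divided by role into motile axoneme genes (the Dnah, Dnai, Dnali, Tekt and Rsph families with Spag1, Spag6, Spag6l, Spag16 and Spag17), general cilium genes (Ift, Bbs, Kif3, Tctn and Dynlrb) and the other Spag genes, which owe their name to sperm rather than to the axoneme.

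The probes of the genes on which the results turn are shown first, since what was measured for each gene is the hybridization to these 60 bases. Both Tekt1 probes and both kept Dnah2 probes lie on the minus strand of chromosome 11, and their positions are those of the array files on build mm9. The span of the second Tekt1 probe is longer than the probe, so its bases come from separate stretches of the genome.
Tekt1, chr11:72158224-72158282, brighter probe: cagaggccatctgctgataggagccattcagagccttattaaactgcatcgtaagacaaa
Tekt1, chr11:72159255-72165359, second probe: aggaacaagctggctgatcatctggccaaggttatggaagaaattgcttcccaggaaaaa
Dnah2, chr11:69234323-69234382, brighter probe: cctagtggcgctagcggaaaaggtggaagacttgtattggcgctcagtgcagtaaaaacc
Dnah2, chr11:69288993-69289052, second probe: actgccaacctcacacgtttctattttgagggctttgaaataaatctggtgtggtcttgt

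Per channel, 46.5% to 58.9% of probes passed the scanner's background flag. Arrays alike in stage and dye order had ratios that correlated across genes, which are not independent replicates, at r = 0.870 to 0.926. With dyes swapped the range was 0.490 to 0.572 within a stage and 0.286 to 0.371 between stages. Between stages with the same dye order it was 0.512 to 0.633. Cdx2 itself was lower in null pools on 8 of 8 arrays, with log2 ratios of -1.61 to -1.10 (mean -1.39 ± 0.09, SE, adjusted p = 6.61e-09 in limma). Arrays of a stage were treated as repeats of the same pools, so an SD within a stage is called technical, and the pools of the other stage serve as the replicate of a difference between genotypes. All ratios below are log2 of null over wild type, and all p-values come from limma on 2 stage means per gene with Benjamini-Hochberg adjustment over 15282 genes.

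Most cilium genes showed little difference between null and wild type pools. Of 42 members, 2 passed an adjusted p of 0.05, against 10.7% of all genes tested (4.76% of members). Tekt1 fell and Dnah2 rose, and both belong to the motile axoneme. None of the 24 general cilium genes and none of the 4 other Spag genes passed in limma. At an unadjusted p below 0.05 there were 5 members, namely Tekt1, Dnah2, Bbs9, Ift74 and Kif3b, and 22.2% of all genes. The median log2 ratio was -0.01 over the 42 members and -0.01 over all genes. No member was 2-fold different with 1 sign on all 4 arrays of a stage, a size that 0.393% of all genes reached at 4/5 somites and 0.517% at 7/8 somites.

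**Figure D1:**
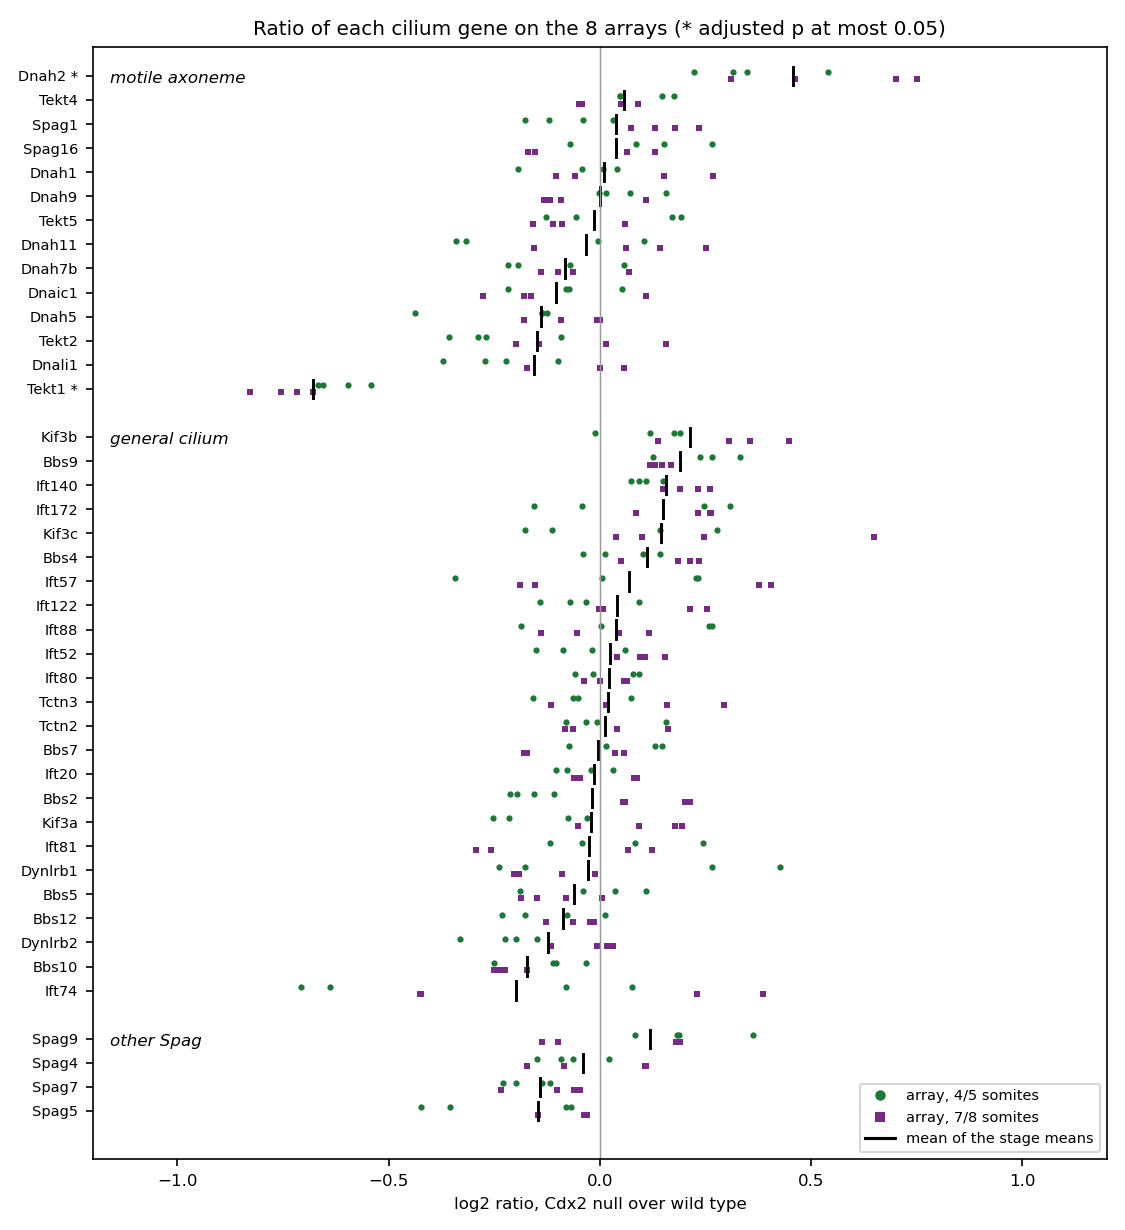
Log2 ratio of null over wild type (horizontal axis) for each of the 42 cilium genes, with 1 point per array (circles, 4/5 somites; squares, 7/8 somites) and a bar at the mean of the stage means; an asterisk marks an adjusted p of at most 0.05. Tekt1 lies apart at -0.68 and Dnah2 at 0.46, while the means of the other 40 genes lie between -0.20 and 0.21.

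The 40 members that did not pass had mean log2 ratios between -0.20 and 0.21, within 0.25 of 0, as did 87.1% of all genes. The bounds of their 95% confidence intervals lay between -0.39 and 0.40, so the largest difference that any of these intervals reached was 1.32-fold. These intervals rest mostly on a spread pooled over all genes and hardly hold a gene's own spread between arrays. Ift74, whose arrays split by dye order, still had an interval of -0.39 to -0.01. A p above the threshold does not show that these genes were equal in the pools. By the brightest probe, 8 of the 42 members had the same sign on all 8 arrays, against 19.7% of all genes. Tekt1, Dnah5, Bbs10, Spag5 and Spag7 were lower in null and Dnah2, Bbs9 and Ift140 were higher. The second kept probes of Dnah2, Bbs10, Spag5 and Ift140 had arrays on both sides of 0. Dnah5 is no support for a direction here, since its probe was kept only through the wild type pool at 4/5 somites. For 18 members over 1 probe was kept, and for 17 of these the probe means lay at most 0.25 apart on the log2 scale (median gap 0.09). The exception was Dnah2.

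Tekt1 encodes a tektin, a filament protein that runs along the inside of the doublet microtubules of motile cilia and flagella. Its log2 ratio was -0.67, -0.60, -0.54 and -0.66 on the arrays of 4/5 somites and -0.75, -0.72, -0.68 and -0.83 on those of 7/8 somites. On this brighter probe all 8 arrays were below -0.5, and the ratios of the stages did not overlap, those of 7/8 somites being lower. The stage means were -0.62 ± 0.06 and -0.74 ± 0.06 (technical SD, n = 4 arrays each). Tekt1 was 1.60-fold lower in null pools over both stages (log2 ratio -0.68 ± 0.09, SE, adjusted p = 1.59e-05). The second, dimmer probe printed above was also lower in null on all 8 arrays, with stage means of -0.53 and -0.43. Its adjusted p was 0.00162 in limma when every probe was tested. On that probe the stages overlapped and the fall was not larger at 7/8 somites, so the probes differ on the stages.

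On the scale of channel levels, which is log2 after loess and Aquantile normalization, Tekt1 stood at 9.30 ± 0.13 in null and 9.91 ± 0.13 in wild type at 4/5 somites (technical SD, n = 4 arrays). At 7/8 somites it stood at 9.08 ± 0.09 in null and 9.82 ± 0.08 in wild type. The arrays of null and wild type did not overlap at either stage. Levels at 4/5 and 7/8 somites overlapped within each genotype. In pooled tissue, fewer cells that express a gene and less RNA per cell cannot be told apart, for Tekt1 and for every gene below.

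In the RefSeq gene order, the protein-coding genes beside Tekt1 are Smtnl2 and Fbxo39, looked up after the ratios were seen. Smtnl2 was also lower on 8 of 8 arrays, with log2 ratios of -0.82 to -0.59 (mean -0.72 ± 0.08, SE, adjusted p = 7.09e-06), close in size to Tekt1. Fbxo39 had no kept probe. Beside Dnah2, Kdm6b (-0.16, adjusted p = 0.304) and Efnb3 (0.25, adjusted p = 0.0764) did not pass.

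Dnah2 encodes a heavy chain of the inner dynein arms. Its log2 ratio was 0.32, 0.35, 0.22 and 0.54 on the arrays of 4/5 somites and 0.70, 0.46, 0.31 and 0.75 on those of 7/8 somites. The ratio was above 0 on every array, and the stages overlapped. The stage means were 0.36 ± 0.13 and 0.56 ± 0.21 (technical SD, n = 4 arrays each). Dnah2 was 1.37-fold higher in null pools over both stages (0.46 ± 0.09, SE, adjusted p = 0.00134). The second kept probe, which was well above background on at most 3 arrays of a pool, gave 0.08 at 4/5 and 0.21 at 7/8 somites and did not pass (adjusted p = 0.379 when every probe was tested). The 3 other Dnah2 probes were well above background on 0 arrays. The Dnah2 call rests on 1 probe of 5 and was lost with no background correction (0.33, adjusted p = 0.0628) and on the arrays with Cy3 on null alone (0.39, adjusted p = 0.0515).

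The channel level of Dnah2 was 7.75 ± 0.11 in null and 7.39 ± 0.03 in wild type at 4/5 somites, and 7.81 ± 0.13 in null and 7.25 ± 0.24 in wild type at 7/8 somites (log2, technical SD, n = 4 arrays). Null and wild type did not overlap at either stage. At 7/8 somites 1 wild type array lay just below the lowest null array, and the other 3 lay well under it.

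**Figure D2:**
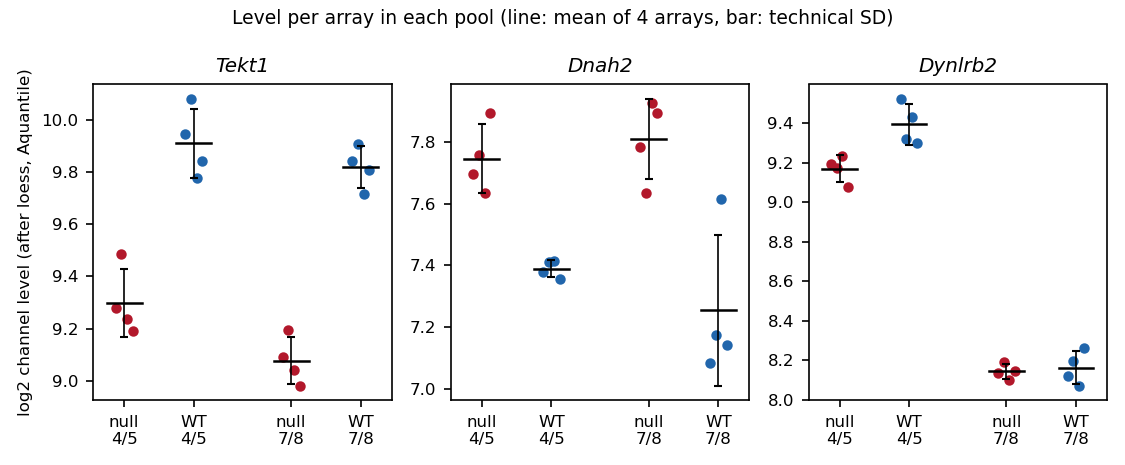
Log2 channel level of Tekt1, Dnah2 and Dynlrb2 on each array (points), by pool, null to the left of wild type (WT) at each stage; lines are means of 4 arrays and bars technical SDs, and each panel has its own vertical axis. Tekt1 is lower and Dnah2 higher in null pools at both stages, and Dynlrb2 is lower at 7/8 than at 4/5 somites in both genotypes.

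The other dynein heavy chains did not pass. Dnah1 and Dnah7b (inner arms) and Dnah5, Dnah9 and Dnah11 (outer arms) had mean log2 ratios from -0.14 for Dnah5 to 0.01 for Dnah1. Dnah7b shares near-identical paralogues, so its probe may also take up their RNA. The intermediate chain Dnaic1 of the outer arm had -0.10. Dnali1, a light intermediate chain of the inner arm and the motile member next in size after Tekt1 and Dnah2, had -0.10, -0.37, -0.27 and -0.22 at 4/5 and -0.17, -0.17, 0.06 and -0.00 at 7/8 somites. It was lower in null on all 4 arrays at 4/5 and scattered around a smaller difference at 7/8 somites, where its probe was well above background on 0 null arrays and 1 wild type array (mean -0.16 ± 0.09, SE, adjusted p = 0.311). It passed when the scanner's processed signals (-0.67, adjusted p = 0.00156) or the authors' deposited log ratios (-0.67, adjusted p = 0.000443) were used instead. Dnali1 too was kept only through the wild type pool at 4/5 somites, so a higher wild type level there was part of its selection and supports nothing.

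The remaining tektins were Tekt2 (-0.15), Tekt4 (0.06) and Tekt5 (-0.02), so Tekt1 was the tektin that passed. Spag1, a cytoplasmic factor of dynein arm assembly, had 0.04, and Spag16, a protein of the central apparatus, also had 0.04. Over the 14 motile axoneme genes, 8 means were below 0 and 6 above, with a median of -0.02. Dnah1, Dnah5, Dnah7b and Dnali1 were kept only through the wild type pool at 4/5 somites. A higher wild type level there was part of their selection, so nothing is read from this count or median. Only 7 of the 14 were well above background on every array in all 4 pools.

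Of the genes named by the rule, 19 were not kept: 16 of 30 motile axoneme genes, 1 of 25 general cilium genes and 2 of 6 other Spag genes. The motile genes left out were the heavy chains Dnah6, Dnah7a, Dnah8, Dnah10, Dnah12, Dnah14, Dnah17, Dnahc3 and Dnahc7c, the intermediate chain Dnaic2, the radial spoke genes Rsph1 and Rsph10b2, Spag6, Spag6l and Spag17 of the central apparatus, and Tekt3. No Rsph gene was therefore measured. The others were Bbs1, Spag11a and Sun5, which the array names Spag4l. Just inside the detection limit, with 3 arrays, lay probes of Dnah1, Dnah2, Dnah5, Dnah7b, Ift140, Spag9 and Tekt5, with means over both stages from -0.14 to 0.14. Just outside it, with 2 arrays, lay probes of Dnah6, Dnah8, Dnah9, Spag6l, Spag9 and Tctn3, with means from -0.11 to 0.09.

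All 24 general cilium genes were well above background on every array in all 4 pools, as were 12451 of 15282 genes overall. Their mean log2 ratios lay between -0.20 and 0.21, 13 above 0 and 11 below, with a median of 0.01. The difference of medians, motile minus general cilium genes, was -0.04. A high wild type level was part of the selection of some motile genes, so nothing is read from the sign of this difference. The largest general cilium ratio was that of Kif3b, a motor subunit of kinesin-2. Kif3b had 0.19, 0.17, 0.12 and -0.01 at 4/5 and 0.31, 0.35, 0.45 and 0.14 at 7/8 somites. It was higher in null on 7 of 8 arrays, and the difference did not pass (mean 0.21 ± 0.09, SE, adjusted p = 0.137). Its partner Kif3a had -0.02, and Kif3c had 0.15.

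The 10 IFT genes were Ift122 and Ift140 of complex A and Ift20, Ift52, Ift57, Ift74, Ift80, Ift81, Ift88 and Ift172 of complex B. Ift74 had the most negative mean, and its arrays split by dye order. With Cy3 on null it had -0.71 and -0.64 at 4/5 and -0.43 and -0.42 at 7/8 somites, and with Cy5 on null -0.08, 0.08, 0.23 and 0.39. The means were -0.55 with Cy3 on null and 0.15 with Cy5, so no direction for Ift74 can be given. Ift74 passed on the arrays with Cy3 on null alone (adjusted p = 0.014), and not over all arrays (mean -0.20 ± 0.09, SE, adjusted p = 0.198). In the brightest probes of 6 members the dye orders were over 0.25 apart on the log2 scale, namely Ift57, Ift74, Ift81, Ift88, Dynlrb1 and Kif3c. The brightest probe of Ift57, for instance, had -0.17 with Cy3 and 0.31 with Cy5 on null. Its dimmer kept probes ran the other way, with 0.10 and 0.30 with Cy3 and -0.02 and 0.05 with Cy5 on null. The split of Ift57 is thus that of a probe. The median gap between dye orders over all members was 0.09. Ift140 was higher in null on 8 of 8 arrays by its brightest probe (0.16, adjusted p = 0.303). Its second kept probe, which was dim, had a mean of 0.0005, with 4 arrays above 0 and 4 below. The other complex A gene, Ift122, had 0.04.

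The BBSome is a coat complex that moves membrane proteins out of the cilium. Its subunit Bbs9 had 0.33, 0.26, 0.24 and 0.13 at 4/5 and 0.17, 0.15, 0.12 and 0.13 at 7/8 somites. Bbs9 was higher in null on all 8 arrays, by a small margin that did not pass (mean 0.19 ± 0.08, SE, adjusted p = 0.187). The subunits Bbs2, Bbs4, Bbs5 and Bbs7 had means of -0.02, 0.11, -0.06 and -0.01. The chaperonin-like genes Bbs10 and Bbs12, which act in BBSome assembly, had -0.17 and -0.09. Tctn2 and Tctn3, tectonics of the transition zone at the base of the cilium, had 0.01 and 0.02. The roadblock light chains of cytoplasmic dynein, Dynlrb1 and Dynlrb2, had -0.03 and -0.12.

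Among the other Spag genes, none passed. Spag5, which encodes the mitotic spindle protein astrin, had -0.07, -0.42, -0.08 and -0.36 at 4/5 and -0.03, -0.03, -0.15 and -0.04 at 7/8 somites. It was lower in null on all 8 arrays, with dye-dependent sizes at 4/5 somites (mean -0.15, adjusted p = 0.354). Spag7 had -0.23, -0.12, -0.14 and -0.20 at 4/5 and -0.05, -0.10, -0.06 and -0.23 at 7/8 somites (mean -0.14, adjusted p = 0.365). Spag9, a scaffold of JNK signalling, had 0.18, 0.19, 0.36 and 0.08 at 4/5 and 0.18, -0.10, 0.19 and -0.14 at 7/8 somites. Its 7/8 somite arrays fell on both sides of 0, and its 5 kept probes had means from -0.06 to 0.12 (mean of the brightest 0.12, adjusted p = 0.485). Spag4, a nuclear envelope protein gene, had -0.04.

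Between the stages, the difference between null and wild type moved little. No member had stage means at least 0.5 apart on the log2 scale without overlap of arrays, against 1.81% of all genes. By the brightest probe of each gene, Bbs2 was the member with opposite signs on every array of the stages, a pattern of 3.86% of all genes. Its ratios were 0.20, 0.05, 0.21 and 0.06 at 7/8 and -0.21, -0.16, -0.20 and -0.11 at 4/5 somites. The pattern was not particular to Bbs2, since a dimmer kept probe each of Ift57 and Ift81 also had it. That of Ift57 had stage means of -0.15 at 4/5 and 0.23 at 7/8 somites, and that of Ift81 -0.17 and 0.09. With 1 pool per genotype and stage, these differences have no test.

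Levels of the same gene at 7/8 and 4/5 somites, as log2 channel levels, changed most for Dynlrb2, which is named after its values were seen. In null pools it stood at 8.14 ± 0.04 at 7/8 and 9.17 ± 0.07 at 4/5 somites (technical SD, n = 4 arrays). In wild type pools it stood at 8.16 ± 0.08 at 7/8 and 9.40 ± 0.10 at 4/5 somites. The stages did not overlap in either genotype. The level at 7/8 minus 4/5 somites was -1.03 in null and -1.23 in wild type, and the second probe gave -0.72 in null and -0.74 in wild type. It was the member at least 2-fold lower at 7/8 somites in either genotype, against 0.164% of all genes in null and 0.164% in wild type, and no member was 2-fold higher, against 0.131% of all genes in null and 0.0851% in wild type.

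In wild type, 10 of 42 members were lower at 7/8 than at 4/5 somites with no overlap of arrays, against 10.2% of all genes, and none was higher, against 9.25%. These were Tekt2, Dnah5, Dnah11, Dnali1 and Spag1 of the motile axoneme, Dynlrb2, Bbs2, Ift20 and Kif3b of the general cilium genes, and Spag7. Since Dnah5 and Dnali1 were kept only through the wild type pool at 4/5 somites, their lower level at 7/8 somites was part of their selection, and nothing is read from this count. In null, 3 were lower (Dynlrb2, Dnah5 and Spag9), against 10% of all genes, and 2 higher (Dynlrb1 and Ift140), against 11%. The median change of level from the earlier to the later stage was -0.06 in null and -0.11 in wild type over members, and 0.00 in both over all genes. Among motile axoneme genes it was -0.09 in null and -0.14 in wild type. Dnah1 and Dnah7b were likewise kept only through the wild type pool at 4/5 somites, so nothing is read from these medians. Whether the genotypes differ in the change of level was not tested, since each value comes from 1 pool per stage.

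**Figure D3:**
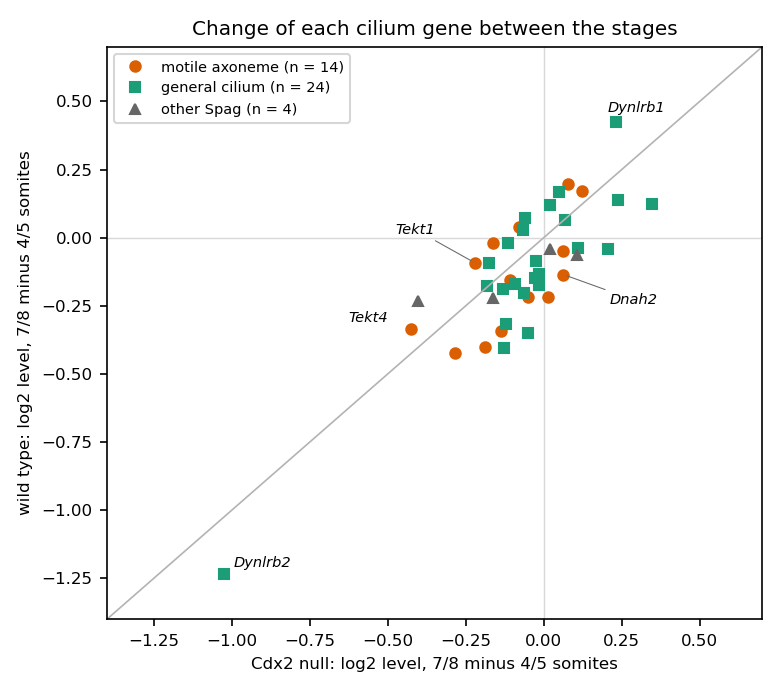
Change of log2 channel level from 4/5 to 7/8 somites in Cdx2 null (horizontal axis) and wild type (vertical axis) for each cilium gene; the diagonal marks equal change, and points below it fell more in wild type. Dynlrb2 lies apart at -1.03 in null and -1.23 in wild type.

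Cilium genes outside the naming rule were read from lists made by role, and few of them passed. Of 43 measured motile cilium genes (57 listed), 2 were higher in null and 1 lower, a share to be read against 6.4% higher and 4.33% lower among all genes. Cfap126, which helps to position basal bodies, was lower: it had -0.38, -0.54, -0.46 and -0.40 at 4/5 and -0.46, -0.21, -0.38 and -0.10 at 7/8 somites (mean -0.37, adjusted p = 0.00757), a call lost under 4 of 21 settings. Tppp3, a tubulin-binding protein gene, was higher (0.39, adjusted p = 0.00383), although its wild type signal at 7/8 somites was well above background on 0 of 4 arrays. Tuba1a, an alpha-tubulin gene that is not confined to cilia, was also higher (0.31, adjusted p = 0.022), a call lost under 11 of 21 alternative settings. The median over this list was -0.05, with 32 of 43 means below 0. Ttc25 and Hydin, for instance, were kept only through wild type pools, so a higher wild type level was part of their selection. Nothing is therefore read from this median or this count of means.

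Of 9 measured cilium regulators (17 listed), 1 was lower and 1 higher, against 4.33% lower and 6.4% higher among all genes. Ccno, a cyclin-like gene of centriole amplification in multiciliated cells, fell: it had -0.79, -0.73, -0.97 and -0.77 at 4/5 and -0.53, -0.37, -0.59 and -0.46 at 7/8 somites (mean -0.65 ± 0.09, SE, adjusted p = 5.95e-05). It was lower on all 8 arrays, less so at 7/8 somites. Foxj1 had -0.21, 0.07, 0.05 and -0.24 at 4/5 and 0.07, 0.19, 0.17 and 0.04 at 7/8 somites. Its arrays of 4/5 somites fell on both sides of 0 (mean 0.02 ± 0.09, SE, adjusted p = 0.953). Foxj1 was dim, well above background at 4/5 somites on 2 null and 3 wild type arrays and at 7/8 somites on 1 null and 0 wild type arrays. No Rfx3 probe passed the detection limit, and Noto was not analysed here.

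Of 23 measured IFT and dynein-2 genes outside the rule (25 listed), 1 passed, against 10.7% of all genes. Dync2li1, the light intermediate chain of the motor that returns IFT trains, was higher in null (0.28, adjusted p = 0.0351), a call lost under 13 of 21 settings. Of 48 measured basal body, transition zone and BBSome genes (51 listed), 1 was higher and 1 lower, against 6.4% higher and 4.33% lower among all genes. Ttc8, the BBSome subunit also called BBS8, had 0.29, 0.54, 0.23 and 0.56 at 4/5 and 0.20, 0.39, 0.21 and 0.56 at 7/8 somites (mean 0.37, adjusted p = 0.00579), a call lost under 3 of 21 settings. Its ratio was above 0 on all 8 arrays and smaller wherever Cy3 was on null. Arl3, a small GTPase that releases lipid-modified cargo inside cilia, was lower (-0.30, adjusted p = 0.0272), a call lost under 12 of 21 settings. The medians of these lists were 0.05 and 0.01.

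Left-right patterning and Hedgehog signalling both involve cilia, and genes of both lists moved in both directions. Of 13 measured node cilium and left-right genes (15 listed), 3 were higher and 3 lower, against 6.4% higher and 4.33% lower among all genes. Bicc1, which encodes an RNA-binding protein that acts after nodal flow, was higher (0.64, adjusted p = 4.67e-05), but its other 2 kept probes had 0.11 and 0.03. The Nodal antagonists Lefty1 (-0.57, adjusted p = 0.0092) and Lefty2 (-0.51, adjusted p = 0.00114) were lower, and the call of Lefty2 was lost under 5 of 21 settings. Lefty1 had -0.87, -1.29, -0.91 and -1.13 at 4/5 but 0.14, -0.35, 0.08 and -0.25 at 7/8 somites, where it was well above background on 1 array of each genotype, and its call was lost under 12 of 21 settings. Nodal itself (0.36) and its partner Gdf1 (-0.36), named after their values were seen, also passed. Nodal had stage means of 0.04 at 4/5 and 0.69 at 7/8 somites, and it did not pass when every probe was tested (adjusted p = 0.0689).

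Of 18 measured Hedgehog pathway genes (21 listed), 6 were higher and 2 lower, against 6.4% higher and 4.33% lower among all genes. The ligand gene Shh had -0.75, -0.56, -0.76 and -0.51 at 4/5 and -0.57, -0.55, -0.60 and -0.51 at 7/8 somites (mean -0.60 ± 0.09, SE, adjusted p = 5.86e-05). Shh was below -0.5 on every array. The neural target Nkx6-1 (0.56, adjusted p = 0.000408) and the co-receptor gene Cdon (0.45, adjusted p = 0.00125) were higher. The neural target Nkx2-9 (0.52) was kept only through the null pool at 7/8 somites, so a higher null level there was part of its selection and supports nothing, although it counts among the 6. It lost its call under 7 of 21 settings. The other 4, named after their values were seen, were Gli3 (0.39), Gli2 (0.36), Gas1 (0.31) and Ihh (-0.40). The median over the Hedgehog list was 0.00.

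**Figure D4:**
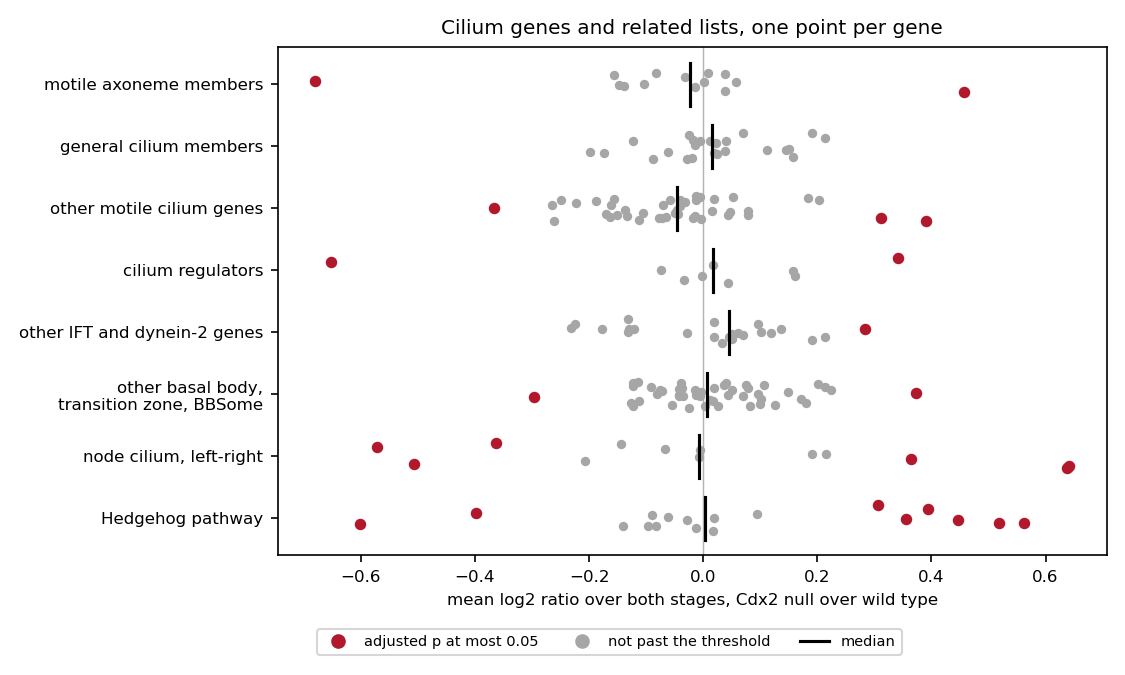
Mean log2 ratio over both stages of each measured gene (points) in the motile axoneme and general cilium classes and in the lists by role, null over wild type; dark red points have an adjusted p of at most 0.05 and bars are medians. Medians lie between -0.05 and 0.05 in every row, and the left-right and Hedgehog rows hold 14 of the 24 called points.

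Some markers of the cell types in the tissue also passed. Among all genes, 6.4% were higher and 4.33% lower, shares to set beside each marker count here and in the next paragraph. The part of these markers in the ratios of Tekt1, Dnah2 and the list genes was not tested. Of 11 measured node and notochord markers (12 listed), 3 were higher in null (Krt8, Krt18 and Sox9) and 3 lower (Shh, Cfap126 and T). T had stage means of -0.61 at 4/5 and -0.07 at 7/8 somites, and it did not pass when every probe was tested (adjusted p = 0.0657). The median log2 ratio of the 11 markers was -0.01, with 6 of 11 means below 0. Summed over these 11, which weighs the brightest probes most, channel levels were 74634 to 82265 in null and 61103 to 71693 in wild type at 4/5 somites, and 86363 to 99804 in null and 61117 to 67496 in wild type at 7/8 somites. Of 10 visceral endoderm markers, 4 were higher and 0 lower, with sums of 45296 to 48857 in null and 29122 to 31615 in wild type at 4/5 somites. At 7/8 somites these sums were 27411 to 28735 in null and 19379 to 20028 in wild type.

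The 10 gut endoderm markers had 4 higher and 1 lower, Krt19 (-1.37), against 6.4% higher and 4.33% lower among all genes. The 5 measured floor plate and neural tube markers (8 listed) had 2 higher, Nkx6-1 and Nkx2-9. Since Nkx2-9 was kept only through the null pool at 7/8 somites, its higher null level there supports nothing. Of 6 measured endothelial markers (7 listed), 3 were lower, among them Etv2 (-1.01) and Kdr (-0.88). Endothelial sums were 2746 to 3110 in null and 3689 to 3771 in wild type at 4/5 somites, and 2831 to 3427 in null and 4945 to 6273 in wild type at 7/8 somites. Of 5 measured primitive blood markers (7 listed), 1 was lower, Hbb-bh1 (-0.39).

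Promoters of the members were read from RefSeq (GRCm38.p6), 250 bases before to 50 after each start site, on both strands. Of 42 member genes, 38 had a promoter there, 43 promoters in all. RFX factors, which act on ciliary genes, bind the X-box, searched as GTTNCC and GGNAAC with any 2 bases between them, and its half-site, searched as GTTGCCA. The full X-box was in 1 of 43 member promoters, that of Bbs7, and in 0.451% of 32851 promoters. The half-site was in 5 of 43 member promoters (11.6%), those of Tekt1, Dnah7b, Tctn2, Tctn3 and Ift88, and in 4.38% of all promoters. The forkhead motif GTAAACA was in 0 of 43 (3.65% of all) and the CDX motif TTTATNG in 3 of 43 (10.9% of all), those of Dnah5, Kif3b and Ift88. A match is a string of letters in this window and says nothing of binding.
The promoter of Tekt1 with its half-site and that of Bbs7 with its X-box are shown because Tekt1 fell, while Bbs7, with the full motif, did not pass (-0.01, adjusted p = 0.99). Both are on the minus strand, and capitals mark the motif, 15 bases before the start site in Tekt1 and 121 in Bbs7.
Tekt1, chr11:72361833-72362132: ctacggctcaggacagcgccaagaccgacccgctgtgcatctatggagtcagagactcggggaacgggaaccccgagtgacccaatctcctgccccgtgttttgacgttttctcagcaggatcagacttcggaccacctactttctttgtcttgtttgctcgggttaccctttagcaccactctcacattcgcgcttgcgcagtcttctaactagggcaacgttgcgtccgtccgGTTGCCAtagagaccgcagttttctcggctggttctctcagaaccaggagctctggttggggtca
Bbs7, chr3:36613340-36613639: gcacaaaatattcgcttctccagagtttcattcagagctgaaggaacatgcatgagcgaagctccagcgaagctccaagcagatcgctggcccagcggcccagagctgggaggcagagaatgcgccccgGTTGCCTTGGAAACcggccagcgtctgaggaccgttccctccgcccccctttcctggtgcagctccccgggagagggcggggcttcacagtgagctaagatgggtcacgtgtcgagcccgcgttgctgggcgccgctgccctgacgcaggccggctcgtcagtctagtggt
The half-site was thus in the promoter of the member that fell and of 4 members whose mean ratios lay between -0.08 and 0.04. Neither promoter of Tekt1 nor that of Dnah2 held the CDX motif searched here.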

How the data were processed

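Array spots were scanned with Agilent Feature Extraction, version 10.5.1.1 per the file headers and 9.5.3 per the submitters' processing notes. Spot and background brightness were deposited as intensity values, not normalized, per the file headers. Per the file headers, the software also wrote processed signals, an intensity after background subtraction and dye normalization. Its log10 ratio sets Cy5 over Cy3, as the file headers record, and its flags are 0 or 1. The deposited series matrix holds the authors' log10 ratios of null over wild type, which equalled the scanner's log ratio with the sign turned to null over wild type at 45018 of 45018 spots on each array (tolerance 1e-05), with column medians of 0. Probe positions are on mm9, per the file headers.

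The direction of each ratio follows the genotype the labels give for each channel. Mean signals were background-corrected by normexp at an offset of 50 and then loess-normalized array by array with limma (version 3.58.1, on R 4.3.3; data.table was version 1.17.8), with controls at weight 0. Spots with an uneven background (58 on 1 array) received the array's median background, and 1184 outlier spots (0.341%) were left out. No spot was saturated. Log2 ratios, computed from the deposited intensities, were averaged over spots of a probe, then over the 4 arrays of a stage. Of 41174 probes, 21907 were kept. RefSeq accessions (GRCm38.p6) named 16964 kept probes, RefSeq synonyms another 619, and the file's name the rest. The brightest probe stood for a gene.

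Genes were tested with lmFit and eBayes on 2 values, 1 per stage, two-sided (1 residual degree of freedom, 18.1 prior). The variance behind each p therefore came mostly from the spread pooled over all genes, and little from how a gene's own pools varied. The SEs of the 40 members that did not pass ran only from 0.084 to 0.091. No p was computed within a stage. The fit was tested on simulated data with independent values and the fit's own pooled spread. That test cannot show how the fit deals with dye effects. The array number and signal over background limit the precision.

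Values on every array are given for members that passed, for the 3 largest ratios of each class, and for members past the stage rules. From each list up to 4 called genes are named by rule, with Foxj1, Noto and Rfx3, and further called left-right and Hedgehog genes were named after their values were seen. The members, classes and lists were chosen with earlier results of these data known, so a count within them is not independent support. Some genes of these lists are counted but not reported here by name.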

Additional observations from a re-analysis of the deposited data

Results flagged for a closer look

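Among the brightest probes of the members, that of Bbs2 moved in opposite directions at the stages. Its log2 ratio at 7/8 minus 4/5 somites was 0.30, being above 0 on every array at 7/8 and below 0 on every array at 4/5 somites. A dimmer kept probe each of Ift57 and Ift81 did the same. These differences were not tested, since there was 1 pool per genotype and stage.

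In 3 of 148 groups of 4 arrays checked (2.03%), 1 array lay far from the other 3. Chance flags about 1 in 20 such groups. Dnah5 had -0.44 on array 1 of 4/5 somites against -0.14 to -0.12 on the other 3. Spag5 had -0.15 on array 3 of 7/8 somites against -0.04 to -0.03 on the others. Nkx6-1, of the Hedgehog list, had 0.15 on array 4 of 7/8 somites against 0.94 to 0.995 on the others. At 7/8 somites its probe was well above background on 3 of 4 arrays in each genotype.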

How the results depend on the processing

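Counts were recomputed under 21 alternatives, or 15 for the stage difference. The number of members called, 2 in the report, was 4 with the authors' deposited log ratios and 4 with the scanner's processed signals, both with Dnah5 and Dnali1 added, and 1 with no background correction (Tekt1). It was 3 with the slide, which equals the original or repeat pair of the labels, as a replicate block over 4 dye swap pairs (Bbs9 added, adjusted p = 0.0472), and 2 to 2 when each array was left out in turn. The block moved the called list genes from 22 to 31 and ended the call of Lefty1. It counted the repeat pair of a stage as a replicate of its own. Arrays of a stage were otherwise taken as repeats of the same pools, so calls added by the block are no further support. Tekt1 was called under 21 of 21 alternatives (-0.77 to -0.58) and Dnah2 under 19 of 21 (0.30 to 0.75).

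The median of motile minus general cilium genes stayed below 0 in all 21 alternatives (-0.04 in the report), reaching -0.10 with median centring and -0.07 to -0.02 without 1 array. The genes were the same throughout, and Dnah1, Dnah5, Dnah7b and Dnali1 were kept only through the wild type pool at 4/5 somites. The sign is therefore no support for a difference between the classes. The 22 called genes of the pathway lists were 8 with Cy3 on null alone, 6 with no background correction, 9 with no filter on dim probes and 13 with uneven backgrounds kept. Without 1 array they were 11 to 21, with 14 without array 2 of 4/5, 11 without array 2 of 7/8 and 12 without array 4 of 7/8 somites. The cause of these shifts was not tested. No member passed the stage difference rule in any of the 15 settings run for it.

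Foxj1, 0.02 in the report, turned to -0.036 with the deposited log ratios, -0.0092 with median centring, -0.0155 with no background correction, -0.0351 with the processed signals, and -0.00748 and -0.0046 without array 2 or 3 of 4/5 somites, up to 0.0441 without 1 array. It never passed the threshold. Ift74 turned to 0.15 with Cy5 on null alone and passed with Cy3 on null alone (-0.55, adjusted p = 0.014). Among all genes, 548 to 2542 were called over the alternatives. Of 861 gene values, 718 kept their direction and their side of the threshold. Of the motile members, 7 of 14 lay near background in at least 1 pool, which limits what their ratios can show.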
